A study of Mus musculus with 2 samples.

Results

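The insulin-like growth factor (IGF) genes described here are the ligand gene Igf1, the receptor gene Igf1r, the IGF-binding protein genes Igfbp2, Igfbp3, Igfbp4, Igfbp5, Igfbp6 and Igfbp7, and Igf2bp2, which codes for an RNA-binding protein. They were taken by gene symbol, and all 9 were found among the 55487 genes listed. Single cells came from injured tibialis anterior muscle of mice aged 8 to 12 weeks, with 1 library from wild-type muscle (WT) and 1 from muscle of mice with a conditional knockout of Setdb1 (KO), a histone H3 lysine methyltransferase gene. The muscles were dissociated with collagenase II and dispase, live cells were sorted by Hoechst and propidium iodide, and transcripts were counted by unique molecular identifiers (UMIs) with 10x chemistry that reads the 3′ end of transcripts. The Cre line, the kind of injury, the day after it and how many mice stand behind each library are given nowhere in the sources used here. With 1 library per genotype there was no test across animals. Every interval below is a 95% interval that covers counting error only, and a difference between the libraries cannot be told apart from a difference between animals, injuries or preparations.

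IGF1 is a secreted growth factor that binds IGF1R, a receptor tyrosine kinase that signals through the PI3-kinase, AKT and mTOR route and through MAP kinases to growth and survival. The binding proteins hold IGFs outside the cell, and can carry, store or withhold them until a protease cuts the binding protein. In regenerating muscle, IGF1 comes from macrophages and stromal cells as well as from muscle cells, and myogenic cells carry the receptor.

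After filtering, 6314 WT and 5730 KO cells remained, with medians of 12122.5 and 13015.5 UMIs per cell; 7 cell barcodes were called in both libraries. Cells fell into 7 classes that reached 50 cells in both libraries. In the WT and KO libraries respectively these were 3414 and 3365 mononuclear phagocyte-like cells, 776 and 787 fibro-adipogenic or fibroblast-like cells, 654 and 563 endothelial-like cells, 682 and 372 myogenic-like cells, 398 and 248 dendritic-like cells, 79 and 115 tenocyte-like cells and 71 and 102 mural-like cells. All 15 myogenic markers and all 10 tenocyte markers reached at least 10 CPM (UMIs of the gene per 1000000 UMIs of the class) in their own classes in both libraries. A cluster led by the mural markers Rgs5, Kcnj8 and Abcc9, with more WT than KO cells, stayed unnamed. Mural counts, levels and shares leave it out and so depend on the naming rule. Muscle fibres were nearly absent, with 5 WT and 8 KO fibre-like cells. Median depth differed within a class: fibro-adipogenic cells had 21821.5 UMIs in WT and 29885 in KO. Levels are therefore given as CPM of the summed UMIs of a class.

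Setdb1 itself stood at 18.2 CPM in WT and 8.76 CPM in KO myogenic cells, a KO/WT ratio of 0.480 (interval 0.367 to 0.622). It was not lower in phagocytes (16.4 against 21.02 CPM), fibro-adipogenic cells (13.97 against 17.2 CPM) or endothelial cells (11.7 against 12.3 CPM). In tenocytes Setdb1 stood at 17.8 CPM in WT and 11.4 CPM in KO, a ratio of 0.640 (0.353 to 1.16). Mural cells had 14.1 and 9.27 CPM (0.659, 0.272 to 1.62) and dendritic cells 14.3 and 11.6 CPM (0.814, 0.511 to 1.28). The intervals of these lower ratios are wide and held 1. Counting at the 3′ end does not show whether a transcript lacks the deleted part.

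The 9 genes differed in the cell classes that held them. Phagocytes and fibro-adipogenic cells together held most Igf1 UMIs, whereas those of Igf1r were spread over fibro-adipogenic, myogenic, phagocyte and endothelial cells. Binding proteins had separate homes: Igfbp7 in vessel and stromal cells, Igfbp5 in mural, tenocyte and myogenic cells, Igfbp4 and Igfbp6 in tenocyte and fibro-adipogenic cells, and Igfbp2 and Igfbp3 at lower counts, mainly in myogenic cells in WT and spread over further classes in KO. Myogenic cells were also fewer in the KO library.

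**Figure D1:**
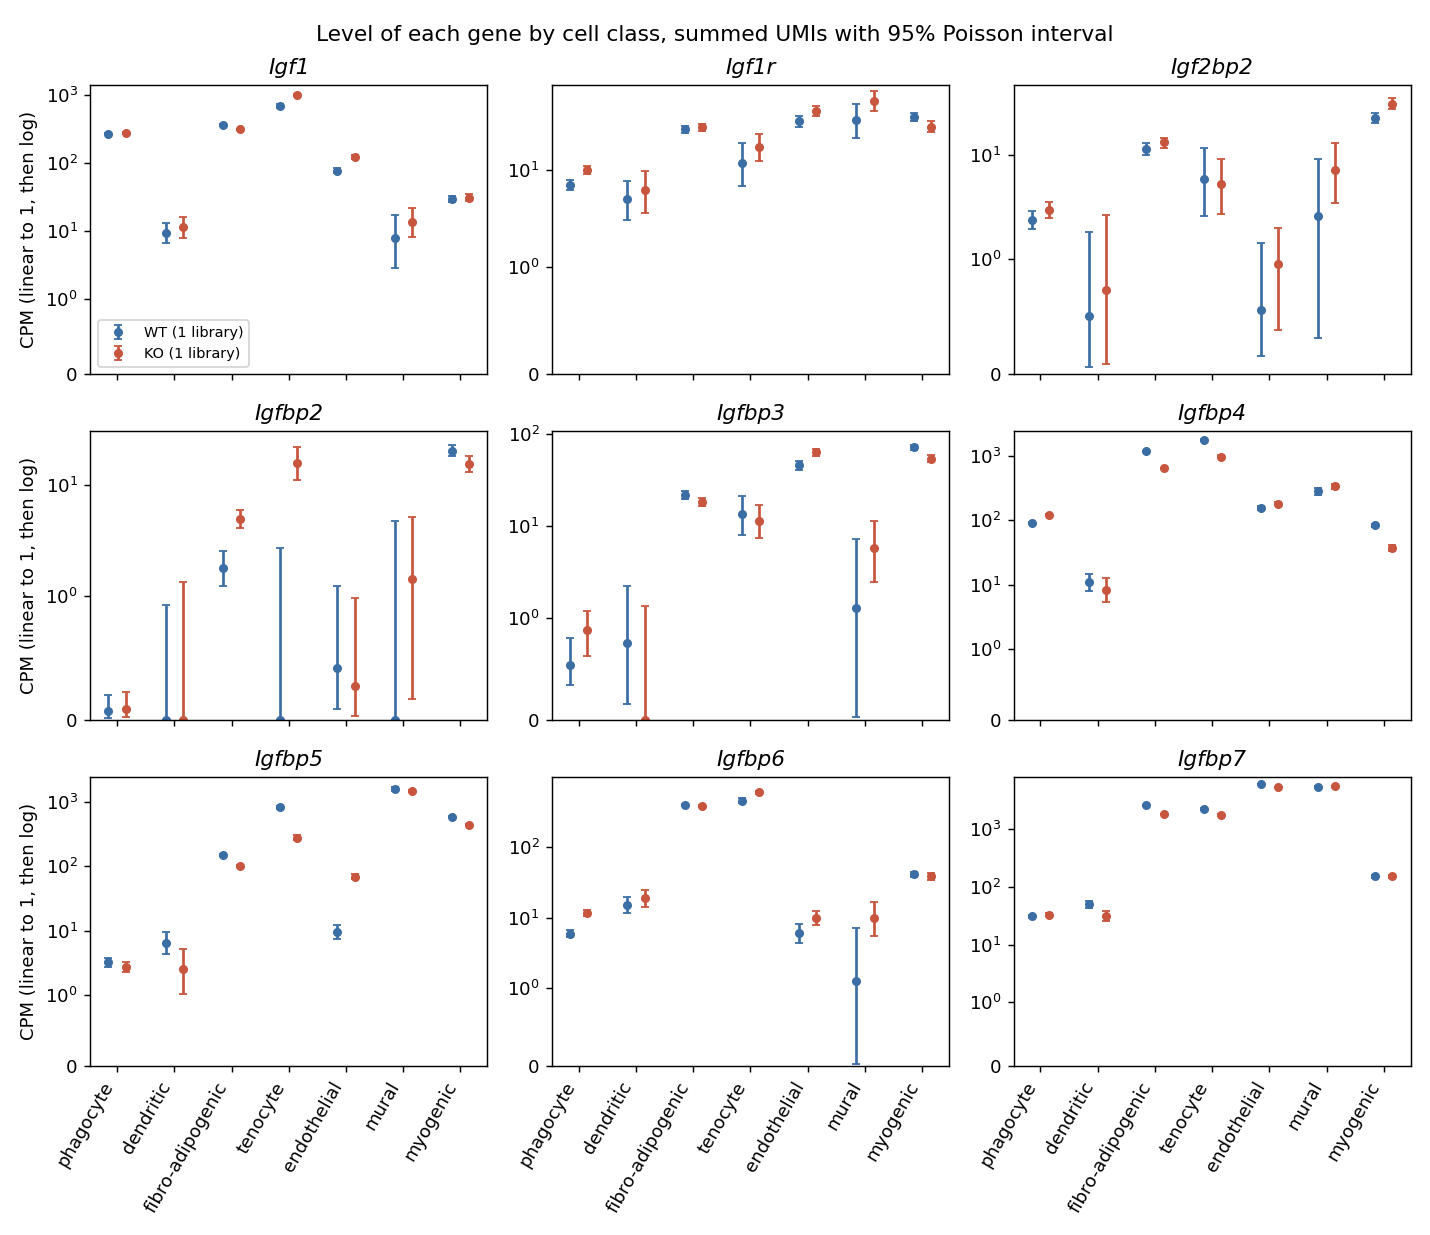
Level of each gene in 7 cell classes, in CPM of summed UMIs on an axis that is linear to 1 CPM and logarithmic above. Blue points are the WT library, red points the KO library, and bars are 95% Poisson intervals that cover counting error; in tenocyte-like cells Igf1 is the higher in KO and Igfbp4 and Igfbp5 the lower.

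A gene was counted as past the fold in a class when (KO CPM + 5)/(WT CPM + 5) was past 1.5-fold in either direction, among genes with at least 20 UMIs over both libraries. By this rule 53 pairs of gene and class could be read and 9 were past the fold, 4 higher and 5 lower in KO. Beside each count stands the share of all genes past the fold in that class. In phagocytes 1 of 8 members was past the fold, higher in KO, against 1.19% of all genes (0.58% higher, 0.612% lower). In endothelial cells it was 2 of 7, both higher, against 3.01% (2.18% higher, 0.828% lower), and in fibro-adipogenic cells 1 of 9, lower, against 4.56% (2.32% higher, 2.24% lower). In myogenic cells it was 1 of 9, lower, against 7.16% (4.17% higher, 2.99% lower), and in dendritic cells 1 of 6, lower, against 6.4% (4.29% higher, 2.11% lower). The smallest classes had the most genes past the fold. Of the members it was 3 of 9 in tenocytes, 1 higher and 2 lower, against 14.8% (11.1% higher, 3.71% lower), and 0 of 5 in mural cells, against 15.8% (10.8% higher, 5.04% lower). The median log2 ratio of the members was 0.43 in endothelial cells, against 0.07 over all genes there, and −0.29 in myogenic cells, against 0.03. It was −0.09 in tenocytes, against 0.13, and −0.19 in fibro-adipogenic cells, against 0.03. In phagocytes it was 0.10, against 0.03, in mural cells 0.26, against 0.07, and in dendritic cells −0.05, against 0.06.

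**Figure D2:**
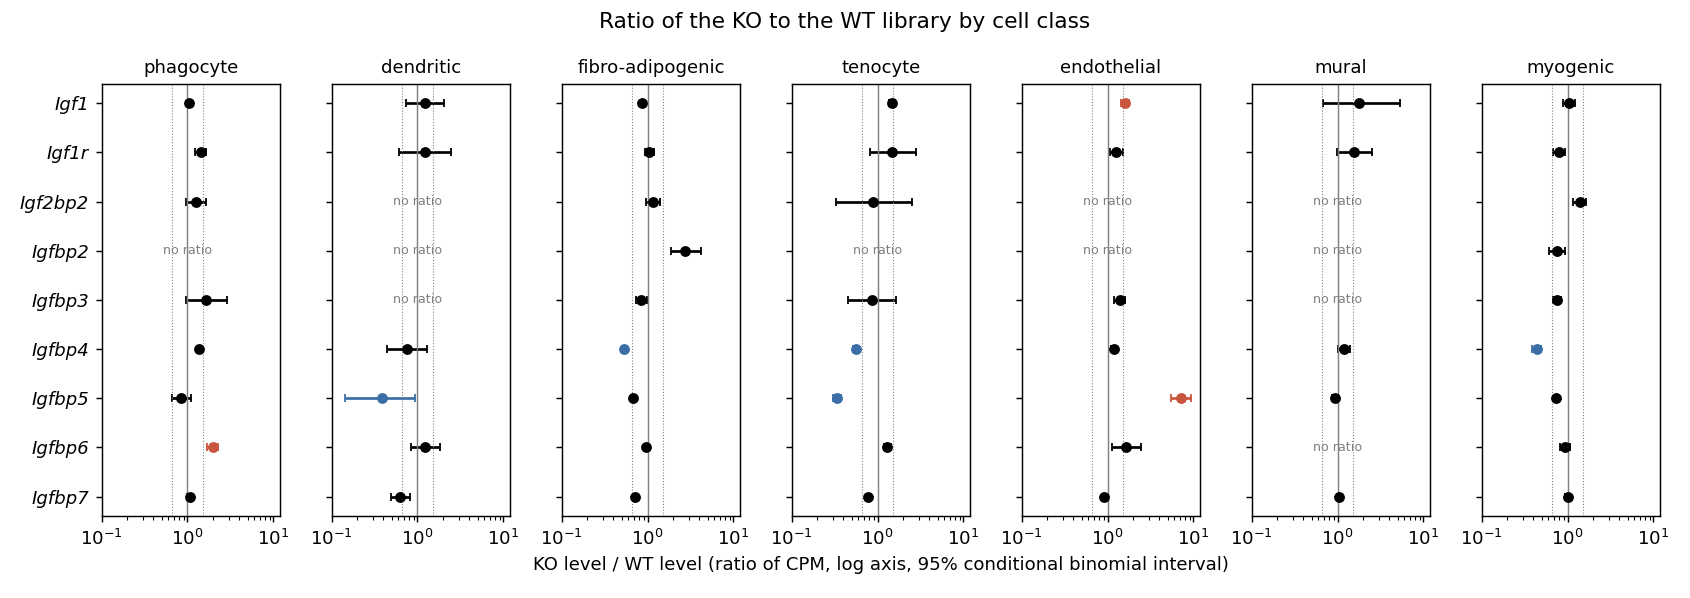
KO/WT ratio of CPM for each gene in each class on a logarithmic axis, with 95% conditional binomial intervals; dotted lines mark 1.5-fold. Red and blue points are pairs past the fold on the CPM + 5 scale, higher (Igf1 and Igfbp5 in endothelial, Igfbp6 in phagocyte) or lower in KO; pairs without enough UMIs or with 0 WT UMIs have no ratio.

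Igf1 codes for the ligand. Its level was highest in tenocyte-like cells, at 679 CPM (interval 636 to 725) in WT and 994 CPM (954 to 1036) in KO, a ratio of 1.46 (1.35 to 1.58) that lies just inside the fold. Fibro-adipogenic cells followed with 361 and 310 CPM, then phagocytes with 265 and 274 CPM. Endothelial cells had 75.9 CPM in WT (69.6 to 82.6) and 120.1 CPM in KO (112 to 128), and myogenic cells 29.3 and 30.5 CPM. The order of these 5 classes was the same in both libraries, and no neighbours in it had intervals that met; dendritic cells (9.29 and 11.3 CPM) and mural cells (7.68 and 13.5 CPM) came last and did not differ beyond counting error. Because phagocytes were so many, they held 55.9% of all Igf1 UMIs in WT and 51.9% in KO, and fibro-adipogenic cells 32.7% and 31.8%. Tenocytes held 4.53% in WT and 9.71% in KO, beside 1.48% and 2.43% of all UMIs.

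Igf1 separated the phagocyte clusters. It stood at 438 CPM in WT and 416 CPM in KO in the cluster led by F13a1 and Mrc1, a macrophage mannose receptor gene, and at 493 and 431 CPM in the cluster led by Mmp12, a macrophage elastase gene. The cluster led by Ly6c2, Hp and Plac8, genes of inflammatory monocytes, had 7 Igf1 UMIs over 134 WT cells and 1 over 31 KO cells, or 6.56 and 3.77 CPM. Cells with Cx3cr1 and MHC class II genes lay between, at 168 and 145 CPM. In the cluster led by Cxcl2 and Cxcl3, chemokine genes of neutrophil recruitment, Igf1 was at 218 CPM in WT and 260 CPM in KO. Across the 15 finer phagocyte clusters, Igf1 was higher in KO in 6 and lower in 9; the interval lay above 1 in 2 and below 1 in 4 of these clusters.

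In fibro-adipogenic cells the class level of Igf1 was lower in KO (ratio 0.860), but the ratio was above 1 in its 4 main finer clusters, by ratios of 1.09 to 1.36, with an interval above 1 in 2 of them. These clusters are described with Igfbp4, and their shares of the class differed between the libraries.

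Igf1 in endothelial-like cells was past the fold, with a KO/WT ratio of 1.58 (1.42 to 1.76). It was found in 32.4% of WT cells and 42.5% of KO cells, and, after every cell was thinned to 1000 UMIs, in 7.03% and 9.59%. No single cell held more than 2.39% of its UMIs. Igf1 was higher in the venular cluster led by Selp, Sele and Ackr1 (179 CPM in WT, 228 in KO) than in the capillary cluster led by Gpihbp1 (38.3 and 60.3 CPM). The venular cluster had 151 WT cells and 187 KO cells. When the clusters of the KO library were weighted as in WT, the log2 ratio was 0.42 and no longer past the fold. The 24 phagocyte markers moved with this result: their summed level in endothelial cells was 1692 CPM in WT and 2962 CPM in KO, 14 and 19 of them reached 10 CPM, and none was at 0. The 15 fibro-adipogenic markers summed to 209 and 330 CPM there. The part of these other transcripts in the Igf1 difference was not tested.

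**Figure D3:**
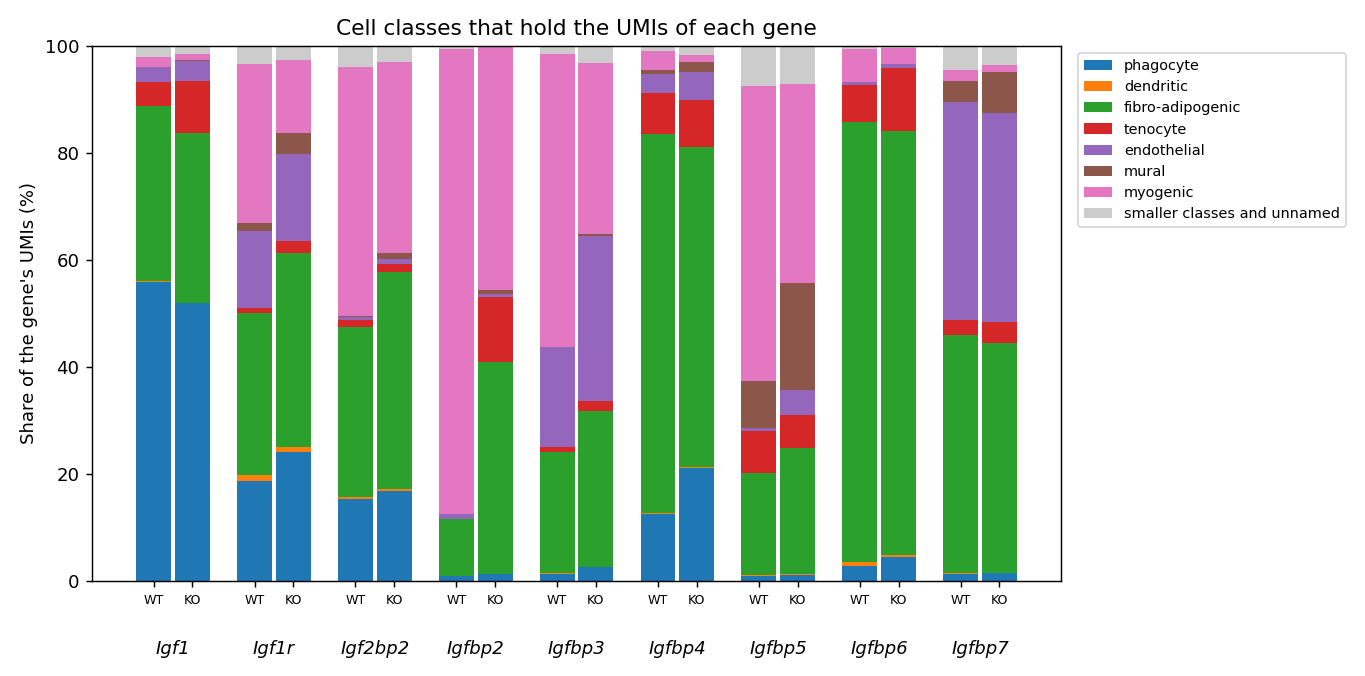
Share of each gene's UMIs held by each cell class, as stacked bars from 0 to 100% for the WT and KO libraries; grey is the smaller classes and cells left unnamed. Phagocytes hold 55.9% and 51.9% of Igf1 UMIs, and the myogenic share of Igfbp2 is 86.9% in WT and 45.7% in KO. The KO library has fewer myogenic cells.

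Igf1r, the receptor gene, was at low counts, with no more than 12 UMIs in any cell of the described classes. WT levels were 35.6 CPM in myogenic cells, 33.3 in mural, 32.3 in endothelial and 26.5 in fibro-adipogenic cells, and neighbours in this order had intervals that met. Tenocytes (11.9 CPM), phagocytes (7.02 CPM) and dendritic cells (5.02 CPM) had less. In KO the levels were 28.2 CPM in myogenic, 52.1 in mural, 40.8 in endothelial, 27.8 in fibro-adipogenic, 17.5 in tenocyte, 10.0 in phagocyte and 6.18 in dendritic cells. No Igf1r pair was past the fold. The myogenic ratio was 0.792 (0.677 to 0.925), and in the 4 finer myogenic clusters the ratios were 0.779 to 0.997, all with intervals that held 1. In phagocytes the ratio was 1.43 (1.23 to 1.66), and in mural cells 1.56 (0.988 to 2.55), where WT had 26 UMIs. Fibro-adipogenic cells held 30.1% of Igf1r UMIs in WT and 36.2% in KO, phagocytes 18.6% and 24.2%, and endothelial cells 14.3% and 16.3%. Myogenic cells held 29.7% in WT and 13.6% in KO, where the library also had fewer myogenic cells, and mural cells 1.61% and 3.97%.

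Igfbp2 codes for a binding protein that is strongly expressed in fetal tissue and in some progenitor cells. Myogenic cells held most of its UMIs in WT, with 272 UMIs (20.3 CPM), and had 137 UMIs (15.4 CPM) in KO, a ratio of 0.760 (0.614 to 0.936). The coarser myogenic clusters (resolution 1) differed in direction. In the cluster led by Pax7 and Myf5, transcription factor genes of muscle stem cells and myoblasts, Igfbp2 was at 13.7 CPM in WT and 16.2 in KO. In the cluster with mitotic genes such as Cenpf it was at 43.5 and 17.1 CPM (ratio 0.392), in the cluster with histone genes at 30.4 and 15.6 CPM (0.513), and in the cluster led by Actc1 and Myog, a transcription factor gene of differentiating myocytes, at 25.9 and 12.4 CPM (0.477).

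Tenocyte-like cells had no Igfbp2 UMI in 79 WT cells and 36 UMIs in 10 of 115 KO cells, or 15.75 CPM. Against a floor of 3 counts in the WT class (2.22 CPM) the KO level was at least 7.09-fold higher. A single KO cell held 12 of the 36 UMIs (33.3%), and the other KO cells stood at 10.53 CPM. Fibro-adipogenic cells had 33 UMIs in WT (1.80 CPM) and 119 in KO (4.97 CPM), a ratio of 2.76 (1.86 to 4.19) at a level too low to be past the fold on the CPM + 5 scale. The myogenic share of Igfbp2 UMIs was 86.9% in WT and 45.7% in KO, and the fibro-adipogenic share 10.54% and 39.7%. With the higher UMI minimum applied to both libraries, fibro-adipogenic cells held the largest KO share.

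Igfbp3 codes for the main carrier of IGFs in blood. Myogenic cells had 71.2 CPM in WT and 53.5 CPM in KO, a ratio of 0.750 (0.671 to 0.838) that was not past the fold. In the coarser clusters it was lower in KO in the Pax7 and Myf5 cluster (86.6 against 67.3 CPM) and higher in the Myog cluster (37.0 against 56.8 CPM). Endothelial cells had 45.4 CPM in WT and 62.9 CPM in KO, a ratio of 1.39 (1.20 to 1.60). Few endothelial cells carried it: 8 WT cells and 9 KO cells with at least 10 UMIs held 41.5% and 41.0% of the endothelial UMIs. Its highest endothelial level was in a small cluster of 55 WT and 54 KO cells led by Stmn2 and Gja4, the latter a connexin gene of arterial endothelium, with 118.9 and 167.4 CPM. Fibro-adipogenic cells had 21.6 and 18.3 CPM and tenocytes 13.3 and 11.4 CPM. Myogenic cells held 54.8% of Igfbp3 UMIs in WT. In KO, where the library also had fewer myogenic cells, the UMIs were nearly even between myogenic (31.8%), endothelial (30.8%) and fibro-adipogenic cells (29.3%). The endothelial share in KO was the largest in 4 of 6 alternative ways to call or cluster the cells.

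Igfbp4 and Igfbp5 gave 6 of the 9 pairs past the fold, and the sequence just upstream of their start sites is given here to place them. Both are shown 5′ to 3′ on the gene's own strand, from the RefSeq promoter table of build GRCm38.p6, as the 250 bases before the start. Igfbp4 lies at chr11:99040994-99041243 on the plus strand and Igfbp5 at chr1:72874866-72875115 on the minus strand. Capitals mark the only TATAAA in the Igfbp4 window.
Igfbp4: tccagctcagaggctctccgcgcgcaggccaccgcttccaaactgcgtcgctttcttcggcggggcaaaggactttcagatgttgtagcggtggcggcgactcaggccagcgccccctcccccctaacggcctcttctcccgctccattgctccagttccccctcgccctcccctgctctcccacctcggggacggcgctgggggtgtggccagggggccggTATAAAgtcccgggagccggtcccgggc
Igfbp5: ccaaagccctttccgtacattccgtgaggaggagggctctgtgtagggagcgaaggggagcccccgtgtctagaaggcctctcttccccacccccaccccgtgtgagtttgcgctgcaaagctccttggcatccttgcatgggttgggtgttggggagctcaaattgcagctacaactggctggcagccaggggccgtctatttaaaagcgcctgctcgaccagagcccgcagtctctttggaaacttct
The Igfbp4 window has 69.2% G or C and 22 CG pairs, and the Igfbp5 window 58.8% and 10. Over 32851 such windows the medians were 52.4% and 6. TATAAA was searched on both strands; 12.4% of all windows held it, and the Igfbp5 window did not. GGGCGG, searched in the same way, was in 32.7% of all windows and in neither of these windows. A match of letters is no sign that a factor binds. Igfbp5 and Igfbp2 are neighbours on chromosome 1 and end towards each other, with a gap of 5457 bases between the genes in the GENCODE M21 annotation. In tenocytes Igfbp2 was higher and Igfbp5 lower in KO, and in myogenic cells both ratios were below 1, at 0.760 and 0.740. Within the 4 finer myogenic clusters the ratios ran from 0.388 to 1.19 for Igfbp2 and from 0.916 to 1.02 for Igfbp5.

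Igfbp4 codes for a binding protein that withholds IGFs until the protease PAPP-A cuts it. It was past the fold in 3 classes, tenocytes, myogenic cells and fibro-adipogenic cells, and lower in KO in each. In tenocytes it was 1765 CPM in WT and 983 CPM in KO, a ratio of 0.557 (0.525 to 0.590). A single WT tenocyte held 511 UMIs, 21.4% of the class, and the top KO cell held 164, or 7.30%. Without the top cell of each library the log2 ratio was −0.60, against −0.84 with it, still past the fold. In myogenic cells Igfbp4 was at 83.6 CPM in WT (78.8 to 88.7) and 36.7 CPM in KO (32.9 to 40.9), a ratio of 0.439 (0.387 to 0.497). It was detected in 57.9% of WT and 37.9% of KO myogenic cells, and after thinning in 8.94% and 5.11%. No WT myogenic cell held more than 25 UMIs.

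All 4 coarser myogenic clusters (resolution 1) had less Igfbp4 in KO. The Myog cluster had 112.9 CPM in WT and 18.5 CPM in KO (ratio 0.164), and the Pax7 and Myf5 cluster 93.5 and 50.5 CPM (0.540). The cycling clusters had 50.6 and 32.9 CPM with histone genes, and 42.8 and 25.1 CPM with mitotic genes. In WT, Igfbp4 was therefore highest in the differentiating cells, whereas in KO it was highest in the Pax7 and Myf5 cluster. With a minimum of 2000 UMIs per cell in place of the minimums used, the log2 ratio of the myogenic class was −0.47, not past the fold, against −1.09. Markers of phagocytes in myogenic cells summed to 560 CPM in WT and 981 CPM in KO, with 10 and 12 of 24 at 10 CPM or more and none at 0. The 7 erythroid markers with a value summed to 44.6 CPM in WT and 816 CPM in KO myogenic cells, with 1 and 4 at 10 CPM or more and 2 and 1 at 0. Muscle fibre markers summed to 1951 and 3889 CPM (9 of 13 at 10 CPM or more in both), mural markers to 1032 and 1608 CPM (4 and 3 of 12), endothelial markers to 85.5 and 173 CPM (1 and 2 of 13) and tenocyte markers to 63.6 and 134 CPM (1 of 10 in both). Fibro-adipogenic markers went the other way, at 1661 CPM in WT and 1421 CPM in KO (7 and 9 of 15). Of these lists only the tenocyte list had members at 0, with 2 in WT and 1 in KO. The part of these transcripts was not tested.

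In fibro-adipogenic cells Igfbp4 was at 1196 CPM in WT (1181 to 1212) and 643 CPM in KO (633 to 653), a ratio of 0.537. After thinning it was found in 52.7% of WT and 41.0% of KO cells. Most of the class lay in 4 finer clusters, in different shares; a small cluster led by Sfrp5, with 18 WT and 3 KO cells at this resolution, and 1 WT cell of the tenocyte cluster made up the rest. The cluster led by genes such as Clec3b and Pi16, the latter a gene of adventitial fibroblasts, was 46.8% of the class in WT and 20.5% in KO. A cluster with Tnc and Cthrc1, genes of matrix-producing fibroblasts, was 12.0% and 35.3%, a cycling cluster 8.89% and 24.7%, and a cluster with Smoc2 and Mfap4 29.9% and 19.2%. Igfbp4 was highest in the Clec3b cluster, at 1836 CPM in WT and 1385 CPM in KO (ratio 0.754), and lower in the Smoc2 cluster, at 956 and 855 CPM (0.894). It was higher in KO in the Tnc cluster, at 314 and 381 CPM (1.22, interval 1.12 to 1.32), and level in the cycling cluster, at 420 and 419 CPM. With the shares of the KO clusters set to those of WT, an alternative chosen after seeing the data, the log2 ratio was −0.30, not past the fold, against −0.89. Markers of other cells also differed in this class. The 12 mural markers summed to 918 CPM in WT and 1819 CPM in KO, with 5 and 4 at 10 CPM or more and none at 0, and the 7 erythroid markers to 44.2 and 209 CPM, with 1 and 4 at 10 CPM or more and 2 at 0 in each. Their part in the result was not tested.

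**Figure D4:**
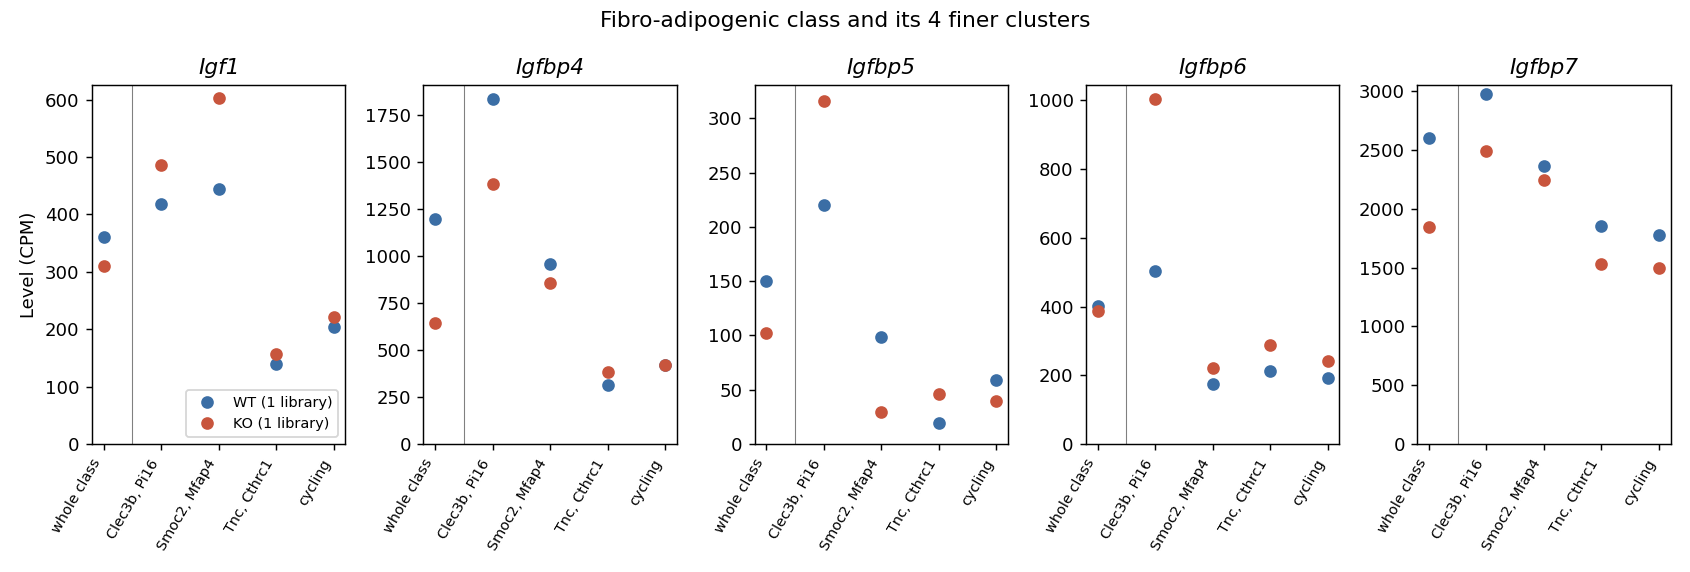
Level in CPM of Igf1, Igfbp4, Igfbp5, Igfbp6 and Igfbp7 in the whole fibro-adipogenic class and in its 4 main finer clusters, blue for WT and red for KO, on axes that start at 0. Igfbp4 is 1196 and 643 CPM over the class but 956 and 855 CPM in the Smoc2 and Mfap4 cluster, and Igfbp6 is higher in KO in each of the 4 clusters.

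Other classes had no lower Igfbp4 in KO beyond counting error. Phagocytes had 90.5 CPM in WT and 122.8 CPM in KO, a ratio of 1.36 (1.30 to 1.41) below the fold, with higher KO levels in 14 of 15 finer clusters, 8 of them with intervals above 1. Among the coarser clusters (resolution 1), the Mrc1 and F13a1 cluster had the most, at 270 and 285 CPM. The Cxcl2 cluster differed most among the larger of these coarser clusters, at 46.2 and 88.5 CPM (ratio 1.92). Endothelial cells had 155 and 183 CPM, mural cells 283 and 339 CPM and dendritic cells 11.04 and 8.37 CPM. In the endothelium Igfbp4 was lower in KO in the venular cluster (374 and 298 CPM) and was at 451 and 491 CPM in the cluster with arterial genes. Fibro-adipogenic cells held 70.8% of Igfbp4 UMIs in WT and 59.9% in KO, and phagocytes 12.5% and 21.2%.

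Igfbp5 codes for a conserved binding protein that also binds extracellular matrix and is induced as myoblasts differentiate in culture. Mural cells had the highest level among the described classes, 1598 CPM in WT and 1480 CPM in KO (ratio 0.926). Within them the smooth muscle cluster led by Myh11, a smooth muscle myosin gene, had 2166 and 2226 CPM, and the cluster led by Rgs5, a pericyte gene, 1065 and 1198 CPM. Schwann-like cells, with only 32 WT and 26 KO cells, had 2236 and 1681 CPM, with 28.0% and 30.6% of the UMIs in 1 cell.

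Tenocyte-like cells had 833 CPM of Igfbp5 in WT (785 to 884) and 281 CPM in KO (260 to 303), a ratio of 0.337 (0.305 to 0.372). It was found in 54.4% of WT and 43.5% of KO tenocytes, and after thinning in 31.6% and 13.04%. The top cell held 112 UMIs (9.96%) in WT and 137 UMIs (21.3%) in KO. Tenocyte markers were alike in both libraries, at 13792 CPM in WT and 13018 CPM in KO summed over 10 genes. The 15 fibro-adipogenic markers were at 33637 and 45980 CPM in these cells and the 12 mural markers at 633 and 548 CPM; their part in the Igfbp5 difference was not tested.

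Myogenic cells had 589 CPM of Igfbp5 in WT and 436 CPM in KO, a ratio of 0.740 (0.712 to 0.769). In the 4 finer myogenic clusters the ratios were only 0.916 to 1.02, and with the KO clusters weighted as in WT the log2 ratio was −0.09, against −0.43. The Pax7 and Myf5 cluster was the richest, at 729 and 681 CPM, and had 507 WT cells and 160 KO cells, while the Myog cluster had 213 and 216 CPM. Fibro-adipogenic cells had 150 CPM in WT and 103 CPM in KO. Their clusters differed in direction. Igfbp5 was higher in KO in the Tnc cluster, at 19.7 and 46.5 CPM (ratio 2.36), and the Clec3b cluster, at 220 and 316 CPM (1.44), and lower in the Smoc2 cluster, at 98.7 and 29.4 CPM (0.298), and the cycling cluster, at 59.4 and 39.3 CPM (0.661). Weighting the finer clusters as in WT turned the log2 ratio from −0.53 to 0.54. A single KO fibro-adipogenic cell held 364 UMIs, 14.8% of the class.

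Endothelial-like cells showed the largest ratio among the 53 pairs that could be read, leaving aside Igfbp2 in tenocytes with its 0 WT UMIs. Igfbp5 had 69 UMIs in 52 WT cells (9.64 CPM) and 503 UMIs in 43 KO cells (68.7 CPM), a ratio of 7.12 (5.53 to 9.30). The share of cells with a UMI was 7.95% in WT and 7.64% in KO, and after thinning to 1000 UMIs 0.765% and 1.78%. The KO UMIs were concentrated: 7 cells with 116, 98, 57, 53, 52, 19 and 17 UMIs held 81.9% of them, while no WT cell had more than 6. All 7 lay in the venular cluster, where Igfbp5 stood at 10.4 CPM in WT and 202.6 CPM in KO. The other KO endothelial cells were at 12.6 CPM, near the WT level, and in the capillary cluster Igfbp5 was at 9.96 CPM in WT and 4.98 CPM in KO.

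**Figure D5:**
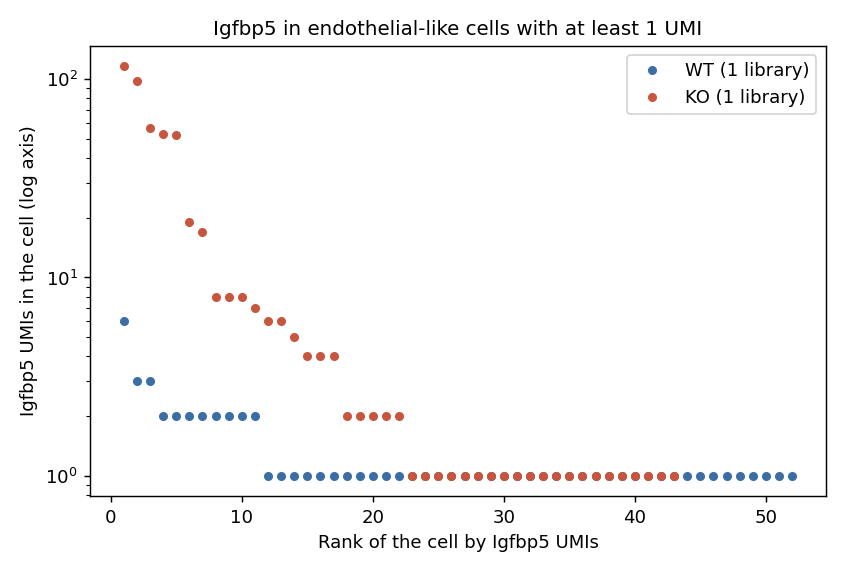
Igfbp5 UMIs in each endothelial-like cell with at least 1 UMI, ranked from the highest, on a logarithmic axis; blue points are WT cells and red points KO cells. The 7 highest KO cells have 17 to 116 UMIs and the highest WT cell has 6.

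These 7 cells had UMIs of all 13 endothelial markers, at 14727 CPM summed, against 17691 CPM in the other KO endothelial cells. Of the 12 mural markers they had UMIs of 2, Acta2 with 1 and Mylk with 6, and Rgs5, a defining pericyte marker, was at 0; the summed mural level was 72.7 CPM, below the 375 CPM of the other KO endothelial cells. Of 6 lymphatic endothelial genes, Prox1 had 5 UMIs, Flt4 5 and Lyve1 1, and Mmrn1, Pdpn and Reln were at 0. The lymphatic sum was 114 CPM, against 37.8 CPM in the other KO cells and 45.6 CPM in WT endothelial cells. That lymphatic list was written after the 7 cells had been seen. Fibro-adipogenic markers summed to 561 CPM in the 7 cells and 327 CPM in the other KO cells.

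Dendritic-like cells had 26 Igfbp5 UMIs in WT (6.53 CPM) and 7 in KO (2.55 CPM), a ratio of 0.390 (0.143 to 0.923). The KO level was less than 2 times the highest level that free RNA could give there, so it is not read as expression. Phagocytes, at 3.21 and 2.73 CPM, were under the same limit in both libraries.

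Igfbp6 codes for a binding protein that prefers IGF2 to IGF1. Tenocytes had 461 CPM in WT and 602 CPM in KO, a ratio of 1.31 (1.19 to 1.44), and fibro-adipogenic cells 401 and 386 CPM (0.962). As with Igf1, the fibro-adipogenic class and its clusters went different ways: Igfbp6 was higher in KO in the 4 main finer clusters, each with an interval above 1, most in the Clec3b cluster, at 504 CPM in WT and 1004 CPM in KO (1.99). The other ratios were 1.26 in the Smoc2, 1.35 in the Tnc and 1.25 in the cycling cluster. A further cluster of this class, with 32 WT and 8 KO cells led by Sfrp5 and with the tight junction gene Cldn1, had the highest Igfbp6, at 4180 CPM in WT and 1901 CPM in KO. Its cells count in the class level, and their part in the class ratio was not tested. Myogenic cells had 41.2 and 38.6 CPM, dendritic cells 15.3 and 18.9 CPM and endothelial cells 6.01 and 9.97 CPM.

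Igfbp6 in phagocytes was past the fold at a low level. There were 254 UMIs in WT (5.94 CPM) and 517 in KO (11.6 CPM), a ratio of 1.96 (1.68 to 2.29). It was found in 6.62% of WT and 12.3% of KO phagocytes, after thinning in 0.644% and 1.52%, and no cell held more than 6 UMIs. Levels were higher in KO in 14 of 15 finer phagocyte clusters, 9 of them with intervals above 1. The small Ly6c2 monocyte cluster had the most, at 24.4 and 52.8 CPM, where the KO level rests on few cells. Free RNA could give at most 1.95 CPM in WT and 1.83 CPM in KO by the limit used here. The 15 fibro-adipogenic markers in phagocytes summed to 257 CPM in WT and 393 CPM in KO, with 6 and 7 of them at 10 CPM or more and none at 0, a 1.53-fold difference whose part in the result was not tested.

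Igfbp7 codes for a secreted protein of vessel walls and stroma that binds IGFs only weakly. Endothelial cells had 6082 CPM in WT and 5473 CPM in KO (ratio 0.8998), mural cells 5409 and 5588 CPM (1.03), fibro-adipogenic cells 2601 and 1843 CPM (0.708) and tenocytes 2281 and 1760 CPM (0.772). No Igfbp7 pair was past the fold. Fibro-adipogenic cells held 44.6% of its UMIs in WT and 43.0% in KO, and endothelial cells 40.7% and 39.1%. In the 4 main finer fibro-adipogenic clusters the ratios were 0.825 to 0.953, closer to 1 than over the class. Myogenic cells had 153 and 154 CPM, although all 4 of their finer clusters were higher in KO, by ratios of 1.17 to 1.76, with an interval above 1 in 3 of them. In phagocytes (31.0 and 33.3 CPM) both levels, and in dendritic cells (49.95 and 31.7 CPM) the KO level, were under 2 times the limit for free RNA. Exons of Igfbp7 overlap those of Polr2b on the other strand, and the sources used here do not give whether counting used the strand.

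Igf2bp2 codes for an RNA-binding protein that binds Igf2 and other transcripts, and is no IGF-binding protein. Myogenic cells had 22.7 CPM in WT and 31.3 CPM in KO, a ratio of 1.38 (1.17 to 1.63) below the fold. It was higher in KO in all 4 finer myogenic clusters, each with an interval above 1, and weighting these as in WT gave a log2 ratio of 0.56. In the Pax7 and Myf5 cluster it was at 26.3 and 37.9 CPM (ratio 1.44), in the cluster with histone genes at 24.5 and 43.3 CPM (1.77) and in the cluster with mitotic genes at 19.8 and 38.4 CPM (1.94). The finer Myog cluster had 2 UMIs in WT and 24 in KO, a ratio of 6.80 (1.69 to 59.4). Fibro-adipogenic cells had 11.4 and 13.2 CPM and phagocytes 2.36 and 2.97 CPM, while endothelial and dendritic cells had at most 7 UMIs in either library.

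Of the IGF genes outside the 9, 47 were listed: IGF2, the insulin receptor family, other binding proteins, their proteases and inhibitors, and the intracellular route to AKT, mTOR and FOXO. Over the 7 classes 10 pairs were past the fold higher in KO and 8 lower. In fibro-adipogenic cells 1 of 41 genes was higher and 1 lower, against 2.32% and 2.24% of all genes there. Pappa, the protease that cuts IGFBP4, was at 17.7 CPM in WT and 40.8 CPM in KO, a ratio of 2.30 (2.02 to 2.61). Ghr, the growth hormone receptor gene, was at 27.3 and 16.4 CPM, a ratio of 0.600 (0.524 to 0.686). The finer clusters of this class differed in share between the libraries, and their part in the Pappa and Ghr ratios was not tested. Pdpk1, a kinase that activates AKT, was at 22.5 and 33.6 CPM and Sos1, an activator of RAS, at 11.6 and 16.2 CPM. Igf2bp3, another IGF2 mRNA-binding protein gene, was at 7.86 and 4.59 CPM and Grb14, an adaptor that restrains the insulin receptor, at 7.26 and 3.72 CPM. These last 4 were not past the fold.

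In endothelial cells 2 of 36 genes were higher and 1 lower, against 2.18% and 0.828% of all genes. Stc1, whose product stanniocalcin inhibits PAPP-A, was at 16.4 CPM in WT and 52.3 CPM in KO, a ratio of 3.20 (2.59 to 3.97). Insr, the insulin receptor gene, was at 44.0 and 72.9 CPM (1.66), and Igf2bp3 at 5.59 and 1.502 CPM (0.269). Lrp1, an endocytic receptor, was at 7.41 and 13.5 CPM and not past the fold.

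In myogenic cells 1 of 41 was higher and 3 lower, against 4.17% and 2.99% of all genes. Igf2, the other IGF ligand and a product of muscle cells, was at 25.3 CPM in WT and 10.4 CPM in KO, a ratio of 0.413 (0.324 to 0.520). Htra1, a secreted protease that can cut binding proteins, was at 15.8 and 7.75 CPM (0.491), and Stc1 at 6.70 and 2.13 CPM (0.318). Rptor, the mTOR complex subunit raptor, was at 8.34 and 17.2 CPM (2.06). Fbxo32, the atrophy-linked ubiquitin ligase atrogin-1 and a target of FOXO, was at 48.8 and 64.3 CPM, not past the fold, as was Rps6kb1, an S6 kinase gene, at 38.0 and 49.97 CPM.

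In phagocytes 1 of 34 was higher and none lower, against 0.58% and 0.612% of all genes. Irs2, an adaptor of the insulin and IGF receptors, was at 41.6 CPM in WT and 68.3 CPM in KO (ratio 1.64). Lrp1, at 186 and 251 CPM, and Pik3r1, a PI3-kinase regulatory subunit gene, at 42.0 and 55.6 CPM, were not past the fold. In tenocytes none of 33 was higher and Igf2bp3 alone was lower (0.315), against 11.1% and 3.71% of all genes. In dendritic cells 3 of 28 were higher and none lower, against 4.29% and 2.11%, and in mural cells 2 of 31 were higher and 2 lower, against 10.8% and 5.04%.

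Across the 14 sums of class and library, the genes whose log2(CPM + 5) ran most alike with a member give its place among cell classes. For Igf1 the closest was Tmed10 (Pearson's r = 0.930), for Igf1r Zmynd11 (0.971), for Igf2bp2 Thyn1 (0.968) and for Igfbp2 Vma21 (0.892). For Igfbp3 it was Sox4 (0.917), for Igfbp4 Mmp14 (0.957), a membrane-bound matrix metalloproteinase gene, and for Igfbp5 Hoxa9 (0.976). For Igfbp6 it was Serpinf1 (0.984), a secreted stromal protein gene, and for Igfbp7 Dlc1 (0.986). These are descriptions over 14 sums that share 2 libraries and their depths.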

How the data were processed

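Gene by barcode matrices of UMI counts, 1 per library, were deposited by the authors; per the submitters' processing notes, STARsolo 2.7.9a, STAR 2.7.8a, Seurat 4.0.1 and build GRCm38 were used. The sources used here do not give the annotation release; 55141 of 55487 gene IDs were found in GENCODE M21, which supplied coordinates. Total UMIs were 121703522 in WT and 138667420 in KO. The 9 genes, the marker lists and the list of 47 other IGF genes were chosen with earlier results of these data known.

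Barcodes with at least 5146 (WT) or 6297 (KO) UMIs, at least 300 genes and at most 10% mitochondrial UMIs were called as cells (the minimum is the 99th percentile of the top 3000 barcodes divided by 10). Scrublet's own threshold marked none, so the highest-scoring 0.8% per 1000 barcodes were removed as doublets: 356 in WT and 290 in KO. Cells were clustered with scanpy 1.11.5 and leidenalg 0.10.2 (2000 variable genes, 30 components, 15 neighbours, resolution 1; finer clusters are those of resolution 2), leaving out the 9 members and the 47 genes. Clusters were named from 16 marker lists; 153 WT and 100 KO cells stayed unnamed, among them a cluster led by Rgs5, Kcnj8 and Abcc9 (50 WT and 22 KO cells) and a cycling phagocyte-marker cluster (103 and 78), and names rebuilt here may differ from the study's.

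The UMIs of a gene, summed over the cells of a class in each library, were divided by the class total to give CPM (per 1000000 UMIs), with exact Poisson intervals; KO/WT ratios have conditional binomial intervals (scipy 1.17.1, level 95%). These cover counting error only. The ratio intervals were checked on Poisson counts simulated at the mean levels of myogenic and fibro-adipogenic cells. Such counts follow the model that the intervals assume, so the check covers the computation only. They hold no spread between animals and no clumping of UMIs in single cells. The fold used a pseudocount of 5 CPM. The most that free RNA could give in a class was taken from the marker of other classes with the smallest ratio of class level (upper Poisson bound) to ambient level. A floor of 3 counts stood for 0. All 9 members were described in every class with at least 50 cells in each library. Of the 47 genes, the 3 highest and 3 lowest ratios in 4 classes could be named, and others are given only in counts. No test across animals, and so no p-value, was possible.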

Additional observations from a re-analysis of the deposited data

Results flagged for a closer look

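The KO/WT ratio of Igfbp5 went in opposite directions in different cell classes, with 1 library per genotype. It was 7.12 in endothelial-like cells, 0.337 in tenocyte-like cells and 0.390 in dendritic-like cells. The difference between classes was not tested. In endothelial cells 7 KO cells held 81.9% of the UMIs, and the KO level in dendritic cells was under 2 times the limit for free RNA.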

How the results depend on the processing

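All 9 pairs past the fold kept their direction under the 14 alternatives for which a ratio was computed, and 4 stayed past the fold in all of them: Igfbp2, Igfbp4 and Igfbp5 in tenocytes and Igfbp5 in endothelial cells. Igf1 in endothelial cells was past the fold in 9 of 14 (log2 ratio 0.42 to 0.77), Igfbp5 in dendritic cells in 9 (−1.09 to −0.23), Igfbp6 in phagocytes in 12 (0.29 to 0.86), and Igfbp4 in fibro-adipogenic (−1.05 to −0.30) and myogenic cells (−1.22 to −0.47) in 13. Of the 44 other pairs, 17 changed sign in at least 1 alternative. Igfbp5 in endothelial cells ranged from 0.86 (resolution 0.5) to 2.71 (pseudocount of 1 CPM). The only alternative that removed cells by their count of the gene took out the top cell of each library. Without the 7 KO endothelial cells with at least 10 Igfbp5 UMIs, KO stood at 12.6 CPM against 9.64 CPM in WT. The alternatives therefore do not show that this ratio holds beyond those cells. The number of pairs of member and class higher in KO, 4 as reported, was 11 with a minimum of 2000 UMIs per cell, 8 with a pseudocount of 1 CPM, 2 with 20 CPM and 7 with a minimum of 5 UMIs per gene. Of the pairs of class and other IGF gene, 10 were higher as reported, 19 with a pseudocount of 1 CPM and 2 with 20 CPM; 8 were lower as reported, 19 with 1 CPM, 0 with 20 CPM and 5 with at least 100 UMIs. Except where a pseudocount or a UMI minimum by its construction admits more or fewer genes, the cause was not tested. The counts under the alternatives stand without the share of all genes under the same setting. For the members only the higher pairs are counted. They are therefore not read as a result about the IGF genes. The weighting by finer clusters was chosen after seeing the data. No paired analysis was possible because each genotype has 1 library. Depth limits Igf1r, Igf2bp2 and Igfbp2, which have few UMIs per cell.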
